A study of Mus musculus with 2 samples.

Results

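The genes described here code, apart from Atp5s and Atp5sl, for subunits of the mitochondrial respiratory chain and of ATP synthase. Of all these genes, 79 lie in the nuclear genome and 13 in the mitochondrial genome. They were taken by symbol: Nduf genes of the a, b, c, s and v series, Sdha to Sdhd, the Uqcr, Cox4i, Cox5, Cox6 and Cox7 families, Cox8a, the Atp5 genes, and the mt-Nd, mt-Co, mt-Cytb and mt-Atp genes. The symbols matched 95 genes, and 92 had at least 30 UMIs in cells. That minimum left 11326 of the 27998 genes in the files. A UMI (unique molecular identifier) tags 1 captured RNA molecule, here at the 3′ end of the transcript. Below the minimum were Cox4i2 with 13 UMIs in each library, Ndufa4l2 with 1 UMI in medial and 0 in lateral cells, and Cox7b2 with 0 in both.

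The cells were microglia, resident macrophages of the brain, sorted from either the medial or the lateral part of the corpus callosum, with 1 droplet single-cell library per region. All cells came from C57Bl6 mice of a genotype labelled CX3CR1 that had received cuprizone, a copper chelator which damages oligodendrocytes and causes loss of myelin, for 4 weeks. Both regions share genotype and cuprizone. No source used here gives the CX3CR1 allele, the number of mice or the sort gate.

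The respiratory chain sits in the inner mitochondrial membrane. Complex I passes electrons from NADH and complex II from succinate to ubiquinone. Complex III hands them to cytochrome c, and complex IV gives them to oxygen. Protons pumped by complexes I, III and IV drive ATP synthase, also called complex V. Complex II is built from nuclear genes alone, while the other complexes join nuclear-encoded subunits to subunits made from the mitochondrial DNA.

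The medial library held 2131 cells with 23442512 UMIs and the lateral library 2308 cells with 23047682 UMIs. A cell was a barcode with at least 2400 UMIs and at most 10% of them from mitochondrially encoded genes. The median cell had 10732 UMIs in medial and 9694 UMIs in lateral cells, and 7 cell barcodes occurred in both libraries. Levels are given as CPM, the count of a gene over the UMI total of the cells of its library, scaled to a total of 1000000. Microglial markers such as P2ry12 and Cx3cr1 summed to 26954 CPM in medial and 27654 CPM in lateral cells, with none of the 10 at 0. The marker sums of 9 other cell types lay between 0.0853 and 114 CPM in medial cells and between 0.0434 and 117 CPM in lateral cells.

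Promoter sequence played no part in choosing the nuclear-encoded genes and was searched for short motifs. The NRF1-type motif, the letters GCGCA, any base N and then GCGC, is named for a transcription factor known for its sites in respiratory chain promoters. It occurred in 17 of the 64 nuclear members with a RefSeq promoter entry (26.6%) and in 7.17% of 17492 protein-coding promoters. Windows ran from 250 bases before to 50 bases after the gene start, and both strands were searched. The YY1-type motif AAGATGGC was found in 14.1% of the members and 3.57% of all promoters, and the Ets-type motif CCGGAAG in 25% of the members and 12.9% of all promoters. The CCAAT motif occurred in 43.8% of the members and 42.3% of all promoters, and TATAAA in 7.81% of the members and 14.8% of all promoters. Shown here is 1 NRF1-type match from a promoter of each nuclear complex, read along the gene's strand in RefSeq's GRCm38.p6, with the match in capitals. They are shown because 3 of these genes followed most nuclear members in the comparison of cells by immediate early genes given further on and 2, Sdha and Uqcrc1, did not.
Ndufs5, complex I, chr4:123718265-123718294, minus strand: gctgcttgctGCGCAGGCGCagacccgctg
Sdha, complex II, chr13:74350231-74350260, minus strand: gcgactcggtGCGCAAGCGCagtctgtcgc
Uqcrc1, complex III, chr9:108936643-108936672, plus strand: cttccttacaGCGCTTGCGCctcagactcc
Cox6a1, complex IV, chr5:115349056-115349085, minus strand: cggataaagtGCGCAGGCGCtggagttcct
Atp5k, complex V, chr5:108434430-108434459, minus strand: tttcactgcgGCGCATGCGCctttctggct
The matches began 98 bases before the start of Ndufs5, 10 before Sdha, 117 before Cox6a1 and 50 before Atp5k. In Uqcrc1 the match began at base 6 of the transcript. Sdha and Ndufb4 had 3 matches each in their windows. A match is a run of letters and does not show that a factor was bound.

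Of all UMIs, the 92 genes together gave 4.39% in medial and 4.71% in lateral cells. The nuclear members gave 2.10% in medial and 2.20% in lateral cells, and the 13 mitochondrial members 2.28% in medial and 2.52% in lateral cells. In free RNA, taken from barcodes with 1 to 100 UMIs, the nuclear members gave 2.32% in the medial library against 2.38% in the lateral one, and the mitochondrial members 1.98% in the medial library against 2.45% in the lateral one. Differences between regions are given as the log2 ratio of medial over lateral CPM with its exact 95% interval, which covers counting error alone. No difference between the regions has a replicate check, and none was tested. A ratio above 1.1 was reached by 6 of the 92 members, against 19.6% of all genes. A ratio below 1/1.1 was found for 16 members, against 26.3% of all genes. Both counts are smaller shares than those of all genes. Genes with at least 1000 UMIs leave out the members Ndufs1, Cox7a1, Cox6b2, Atp5s, Atp5sl and mt-Nd6. Among such genes, 4 members were above 1.1 against 11.7% of all. Below 1/1.1 lay 14 members against 19.1%, which is close to the share of all such genes. With ratios centred on the median gene, which lay at -0.03 on the log2 scale, the same counts were 7 and 7, against 23.5% of all genes above 1.1 and 20.02% below 1/1.1. With each cell counted alike, 5 members lay above 1.1 against 20.1% of all genes, and 25 lay below 1/1.1 against 28.7%, which is close to the share of all genes.

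**Figure D1:**
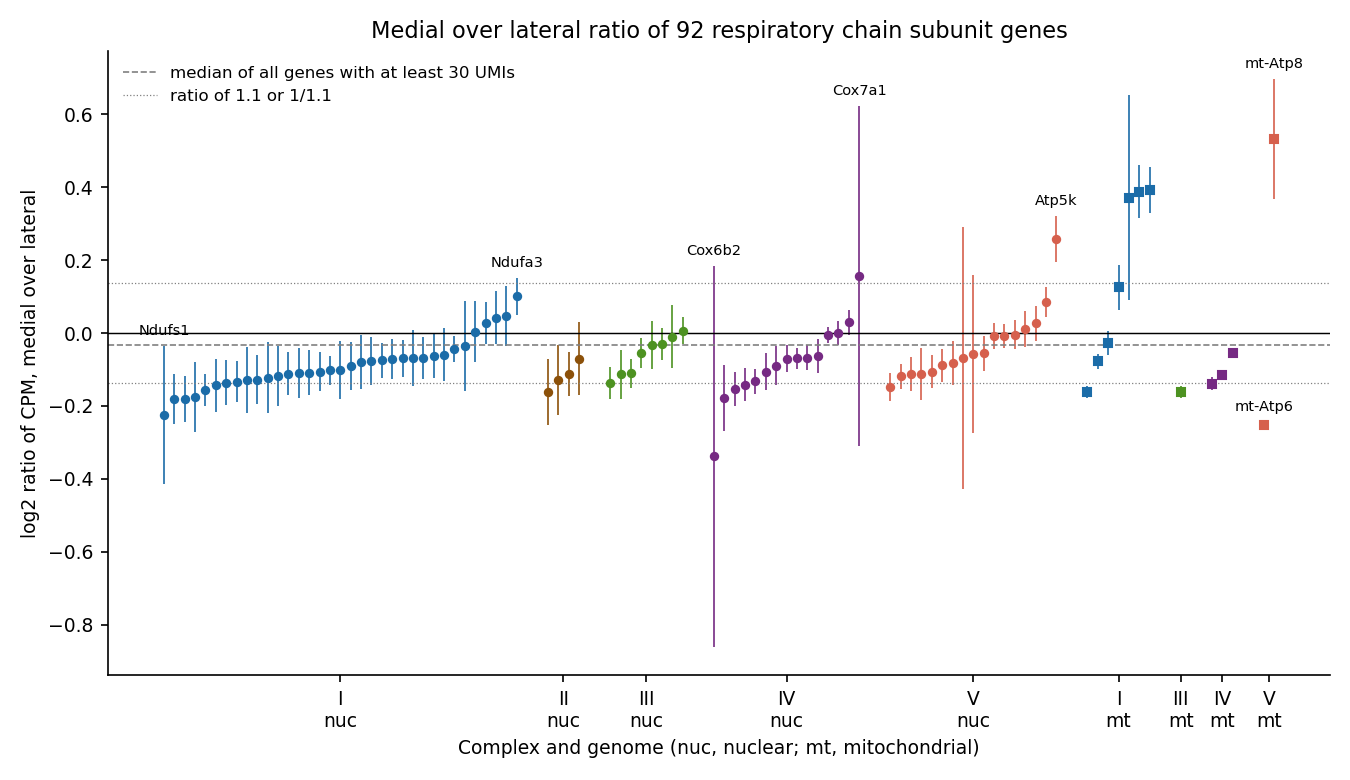
The log2 ratio of CPM in medial over lateral cells is shown for each of the 92 genes, grouped by complex and by genome (circles nuclear, squares mitochondrial), with exact 95% counting intervals as bars. Most nuclear members lie between 0 and -0.2, while Atp5k, Atp5b, Ndufa3 and 5 mitochondrial genes lie above 0 with intervals that do not reach it.

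Complex I is the largest group, with 35 nuclear members, and their median ratio was -0.10. No nuclear complex I gene had a ratio above 1.1, against 19.6% of all genes. Of the 35, 6 lay below 1/1.1, against 26.3% of all genes. Ndufa2, an accessory subunit, had the most UMIs of the group, at 535 CPM in medial and 551 CPM in lateral cells. Ndufa13, an accessory subunit also known as GRIM-19, was at 398 CPM in medial and 428 CPM in lateral cells (log2 ratio -0.10). These levels come from 3′ tags and are not divided by transcript length. Ndufa12, another accessory subunit, was at 164 CPM in medial and 186 CPM in lateral cells, a log2 ratio of -0.18 (-0.24 to -0.12). Ndufs8, which carries iron-sulfur clusters in the core of the complex, had 140 CPM in medial and 159 CPM in lateral cells, with a ratio of -0.18 (-0.25 to -0.11). On the medial side stood the accessory subunit Ndufa3, at 280 CPM in medial and 262 CPM in lateral cells, a ratio of 0.10 (0.05 to 0.15). The lowest ratio, -0.22, belonged to Ndufs1, the largest core subunit, with 18.3 CPM in medial and 21.4 CPM in lateral cells and a wide interval of -0.41 to -0.04.

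All 4 subunits of complex II, succinate dehydrogenase, had lower CPM in medial than in lateral cells, with a median log2 ratio of -0.12, which was -0.036 with each cell thinned to 1 depth. Sdhb, the iron-sulfur subunit, was at 180 CPM in medial and 195 CPM in lateral cells (-0.11, -0.17 to -0.05). Sdhd, a membrane anchor, was at 82.0 CPM in medial and 91.7 CPM in lateral cells (-0.16, -0.25 to -0.07). The interval of Sdhc, the other anchor, held 0. In complex III the 8 nuclear members had a median of -0.04. None passed 1.1 in either direction, against 19.6% of all genes above 1.1 and 26.3% below 1/1.1. Uqcrh, the hinge protein, was nearly equal, at 498 CPM in medial and 496 CPM in lateral cells. Both of the small subunits farthest from 1 were on the lateral side. Uqcrq had 422 CPM in medial and 455 CPM in lateral cells (-0.11), and Uqcr10 had 351 CPM in medial and 386 CPM in lateral cells (-0.14).

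The 15 nuclear genes counted with complex IV, cytochrome c oxidase, had a median ratio of -0.07. Cox4i1 had more UMIs than any other nuclear member, at 1353 CPM in medial and 1357 CPM in lateral cells (0.00, -0.03 to 0.02). Cox8a, a small structural subunit, was at 804 CPM in medial and 844 CPM in lateral cells (-0.07). Ndufa4, named as a complex I gene but known as a subunit of cytochrome c oxidase, was at 307 CPM in medial and 341 CPM in lateral cells (-0.15, -0.20 to -0.11). Several subunits of this complex exist as isoforms that differ between tissues. Cox6a1, the widely expressed form, stood at 586 CPM in medial and 643 CPM in lateral cells (-0.13). Its heart and muscle form Cox6a2 was also detected, at 81.7 CPM in medial and 92.4 CPM in lateral cells (-0.18, -0.27 to -0.09). Tags of the widely expressed form outnumbered those of the muscle form in both libraries. The muscle form Cox7a1 gave 3.63 CPM in medial and 3.25 CPM in lateral cells and Cox6b2, the testis form, 2.47 CPM in medial and 3.12 CPM in lateral cells, and both intervals held 0. Their widely expressed counterparts were Cox7a2, at 313 CPM in medial and 345 CPM in lateral cells (-0.14), and Cox6b1, at 629 CPM in medial and 628 CPM in lateral cells. Cox7a2l, a related gene counted with this complex, was at 606 CPM in medial and 593 CPM in lateral cells (0.03). Cox7b, another small subunit, had 240 CPM in medial and 256 CPM in lateral cells (-0.09).

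Among the 17 nuclear Atp5 genes the median ratio was -0.06. Atp5k, the e subunit that takes part in joining ATP synthase dimers, stood apart on the medial side. It was at 196 CPM in medial and 164 CPM in lateral cells, a log2 ratio of 0.26 (0.20 to 0.32), and its transcript shares no window of read length with another annotated transcript. Atp5k was at 218 CPM in medial and 178 CPM in lateral free RNA. Atp5b, the catalytic beta subunit, was at 438 CPM in medial and 413 CPM in lateral cells (0.08, 0.04 to 0.13). Atp5e, the epsilon subunit of the central stalk, had 642 CPM in medial and 645 CPM in lateral cells. On the lateral side stood Atp5j, the coupling factor F6, with 438 CPM in medial and 486 CPM in lateral cells (-0.15), and Atp5l, the membrane subunit g, with 576 CPM in medial and 626 CPM in lateral cells (-0.12). The 3 genes for the same c subunit were all expressed: Atp5g2 at 518 CPM in medial and 521 CPM in lateral cells, Atp5g1 at 310 CPM in medial and 335 CPM in lateral cells, and Atp5g3 at 133 CPM in medial and 144 CPM in lateral cells. For Atp5g2, 99.1% of the windows at the 3′ end also occur in other annotated transcripts, and for Atp5l 82.2%, so their levels are uncertain. Atp5s and Atp5sl, which the symbol rule takes in, are not stable parts of the enzyme but are counted with it here. Without them the median of the other 15 genes was also -0.06. Atp5s was at 5.55 CPM in medial and 5.81 CPM in lateral cells, and Atp5sl at 14.9 CPM in medial and 15.5 CPM in lateral cells.

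The mitochondrially encoded members did not move as 1 block. The 8 genes above 300 CPM in both libraries all had lower CPM in medial than in lateral cells, and the 5 genes below that level all had higher CPM in medial cells. The limit of 300 CPM was set after the values were seen, and mt-Nd2 was the gene just above it and mt-Nd4l the gene just below. mt-Atp6, a proton channel subunit of ATP synthase, was the most abundant member, at 5953 CPM in medial and 7094 CPM in lateral cells, and had the lowest ratio of the abundant set (-0.25, -0.26 to -0.24). mt-Nd1, a membrane subunit of complex I, was at 2482 CPM in medial and 2777 CPM in lateral cells (-0.16). mt-Cytb, the cytochrome b of complex III, was at 2518 CPM in medial and 2816 CPM in lateral cells (-0.16). The 3 core subunits of complex IV also had ratios below 1. mt-Co1 stood at 3590 CPM in medial and 3891 CPM in lateral cells (-0.12), mt-Co2 at 1933 CPM in medial and 2128 CPM in lateral cells (-0.14), and mt-Co3 at 3493 CPM in medial and 3626 CPM in lateral cells (-0.05). Of the other complex I subunits, mt-Nd4 was at 1616 CPM in medial and 1705 CPM in lateral cells (-0.08), and mt-Nd2 at 637 CPM in medial and 649 CPM in lateral cells (-0.03, with an interval that held 0).

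Among the 5 genes with few tags, called scarce here, mt-Atp8, mt-Nd4l, mt-Nd3 and mt-Nd6 had the 4 highest ratios of all 92 members. mt-Atp8, the small companion of mt-Atp6, was at 31.9 CPM in medial and 22.1 CPM in lateral cells, a log2 ratio of 0.53 (0.37 to 0.70). mt-Nd4l was at 201 CPM in medial and 153 CPM in lateral cells (0.39, 0.33 to 0.46), and mt-Nd3 at 157 CPM in medial and 120 CPM in lateral cells (0.39, 0.32 to 0.46). mt-Nd6 is the protein gene on the other strand of the mitochondrial DNA, and its 10.5 CPM in medial and 8.11 CPM in lateral cells gave a ratio of 0.37 (0.09 to 0.65). mt-Nd5, which like mt-Nd3 and mt-Nd4l lies in the membrane arm of complex I, was at 193 CPM in medial and 176 CPM in lateral cells (0.13, 0.06 to 0.19). The summed log2 ratio was 0.31 for the 5 scarce genes and -0.15 for the 8 abundant genes.

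Pairs of these genes overlap on the mitochondrial DNA. mt-Atp8 (chrM:7766-7969, plus strand, in the GENCODE annotation of GRCm38) runs into mt-Atp6 (chrM:7927-8607), and mt-Nd4l (chrM:9877-10173) runs into mt-Nd4 (chrM:10167-11544). Each pair is known to be carried on a shared transcript. In each pair the upstream gene, with few tags, had higher CPM and the downstream gene, with many, lower CPM in medial cells. The tags of both genes of a pair are therefore not levels of separate RNAs. Why their ratios differed was not tested. For mt-Nd3, mt-Nd4l, mt-Atp6 and mt-Co1 to mt-Co3, 95.3% to 100% of the 3′ windows also occur in annotated nuclear pseudogenes, which the files do not list. For mt-Atp8, mt-Nd6, mt-Nd1, mt-Nd4 and mt-Cytb none do.

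The barcodes holding free RNA did not show the same split. There the 5 scarce genes, too, had medial over lateral ratios below 1, though on few UMIs. mt-Nd4l was at 71.1 CPM in medial and 83.7 CPM in lateral free RNA, a log2 ratio of -0.24 (-0.46 to -0.01). mt-Nd3 was at 105 CPM in medial and 111 CPM in lateral free RNA (-0.08, -0.27 to 0.11), and the intervals of mt-Atp8 (-0.35, -0.88 to 0.18), mt-Nd5 and mt-Nd6 also held 0. mt-Atp6 was at 5887 CPM in medial and 7687 CPM in lateral free RNA. In cells, the ratios of the 5 scarce genes stayed above 0 on the log2 scale, and that of mt-Atp6 below 0, within each of 4 ranges of cells set by common limits of immediate early UMIs, of UMI total or of disease-associated UMIs. Other abundant genes, such as mt-Nd2, crossed 0 in some of these ranges. Across the 12 groups of cells the mt-Atp6 ratio lay between -0.37 and -0.16, and the mt-Atp8 ratio between 0.21 and 0.81.

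**Figure D2:**
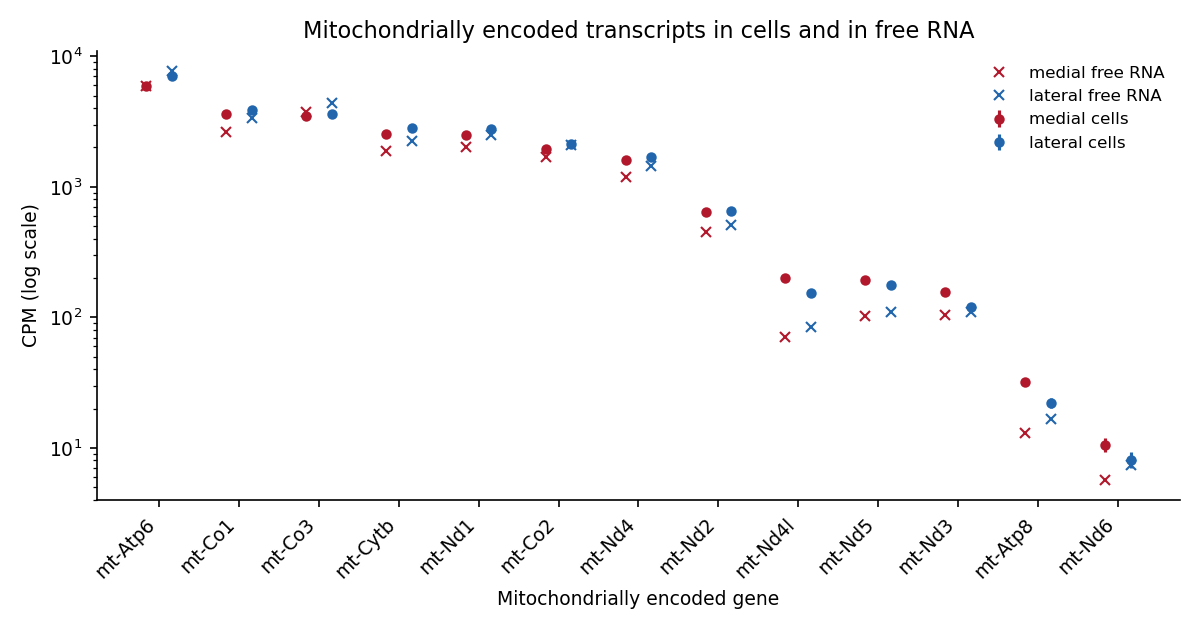
CPM on a log axis of the 13 mitochondrially encoded genes in medial (red) and lateral (blue) cells (circles, with 95% counting intervals that are mostly smaller than the symbol) and in free RNA of the same libraries (crosses). From mt-Atp6 to mt-Nd2 the medial cells lie below the lateral cells, and from mt-Nd4l to mt-Nd6 above them.

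To compare single cells, each was thinned to 3869 UMIs, which left out 131 medial and 231 lateral cells. The median thinned cell held 80 UMIs of nuclear members in medial and 85 in lateral cells, and 85 UMIs of mitochondrial members in medial and 95 in lateral cells. The middle 50% of medial cells had between 1.76% and 2.38% of their UMIs from nuclear members and between 1.76% and 2.74% from mitochondrial members. In the lateral library these ranges were 1.89% to 2.48% for nuclear and 1.96% to 3.13% for mitochondrial members, so that the distributions of the regions overlapped widely. Across cells, nuclear complexes I, IV and V varied together. Spearman's rho for complex I with complex V was 0.46 over 2000 medial cells and 0.36 over 2077 lateral cells, and for complex I with complex IV it was 0.43 in medial and 0.40 in lateral cells. Nuclear and mitochondrial members were more loosely related, with rho of 0.16 in medial and 0.17 in lateral cells. Complex II, with a median of 1 UMI per thinned cell, had rho of 0.10 with complex I in medial and 0.08 in lateral cells. These are descriptions over cells of 1 library at 1 depth, and sparse counts lower such values.

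Immediate early genes, such as Fos, Jun and Egr1, code for fast-responding transcription factors and feedback regulators and are known to respond to signals and to tissue dissociation alike. In both libraries, the 25% of cells with most UMIs of 16 such genes had lower shares of nuclear respiratory chain transcripts than the 25% with fewest. In the medial library 65 of 79 nuclear members had a ratio of high over low cells below 1/1.1, against 33.1% of all genes, and 2 had a ratio above 1.1, against 40.3%. In the lateral library 66 of 78 lay below 1/1.1, against 30.2% of all genes, and 0 above 1.1, against 38.8%. The median log2 ratio of the nuclear members was -0.46 in medial and -0.35 in lateral cells, while that of all genes was 0.04 in each. The ratio lay below 1/1.1 in both libraries for 60 of 78 nuclear members (76.9%) and for 19.6% of all genes measured in both. The mitochondrial members had ratios nearer 1, with median log2 ratios of -0.16 in medial and -0.13 in lateral cells.

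The compared groups held 500 high and 500 low cells in the medial library and 519 of each in the lateral library. Depth was similar, with median UMI totals of 10933.5 in high and 11168.5 in low medial cells, and of 10590 in high and 10319 in low lateral cells. The immediate early genes themselves summed to 15759 CPM in high and 2279 CPM in low medial cells, and to 12171 CPM in high and 1857 CPM in low lateral cells. The disease-associated list moved too, at 11436 CPM in high and 14397 CPM in low medial cells and at 13761 CPM in high and 15076 CPM in low lateral cells, and its part in the result was not tested. These groups are ranges of a score and not cell types: at the upper limits, 28 UMIs in medial and 22 in lateral cells, stood 20 medial and 33 lateral cells. At the lower limits, 11 UMIs in medial and 9 in lateral cells, stood 81 medial and 94 lateral cells. Cells tied at a limit were placed by the order of their barcodes in the data.

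All 5 nuclear complexes had a negative median in both libraries. Complex I had the lowest in the medial library, at -0.50, with -0.37 in the lateral library. Complex IV followed with -0.49 in the medial library and had -0.38, the lowest, in the lateral one. Complex V had -0.42 in medial and -0.32 in lateral cells, complex II -0.40 in medial and -0.25 in lateral cells, and complex III -0.32 in medial and -0.24 in lateral cells. Over 4 equal groups of cells from low to high, nuclear members took 2.33%, 2.24%, 2.11% and 1.75% of the UMIs in the medial library. In the lateral library the shares were 2.39%, 2.30%, 2.21% and 1.92%. The share fell most between the third and the fourth group in each library, where the scores also lay farthest apart. Median immediate early UMIs per thinned cell in the 4 groups were 8, 14, 21 and 48.5 in the medial library. In the lateral library they were 6, 11, 17 and 34.

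**Figure D3:**
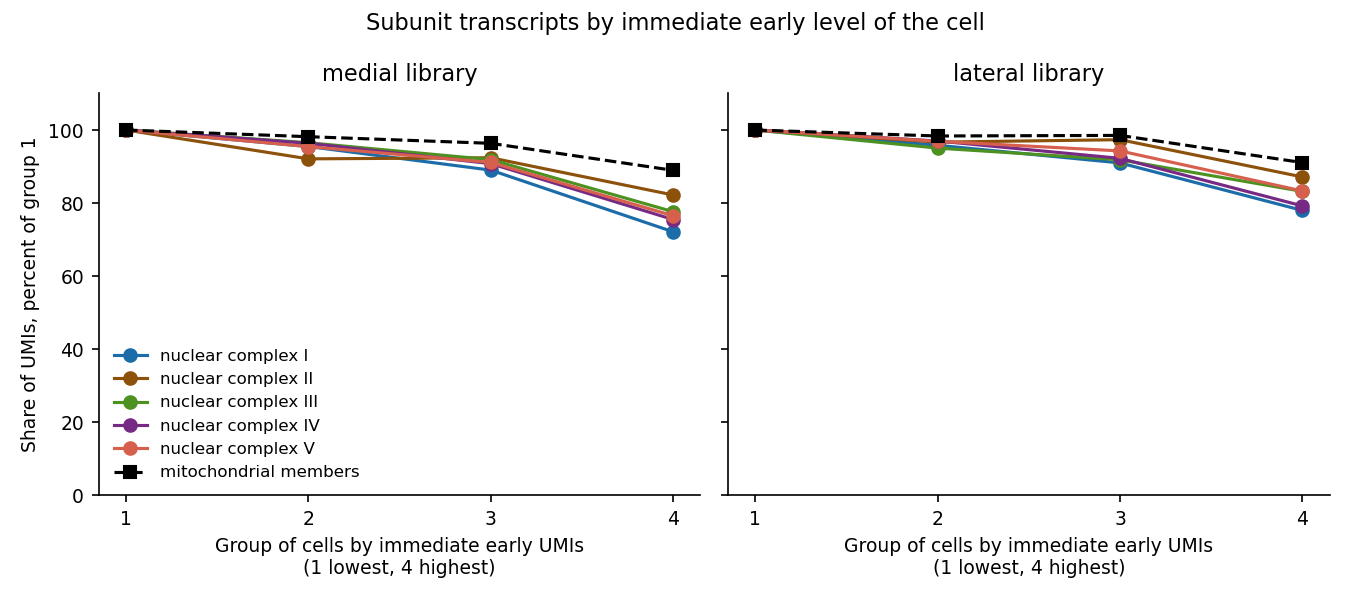
Share of UMIs from each nuclear complex and from the mitochondrial members, as a percent of the share in group 1, over 4 equal groups of cells ordered from low to high immediate early UMIs, in the medial (left) and lateral (right) library. The nuclear complexes fall below the mitochondrial members by group 4 in both libraries. Each point is a sum over about 500 cells and has no replicate.

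Among members with at least 300 UMIs in each library, Ndufb8, Ndufc1 and Ndufa4, named after their values were seen, had 3 of the 4 lowest ratios in the medial library and the 3 lowest in the lateral library. Ndufb8 and Ndufc1 are accessory subunits of complex I. Ndufb8 stood at 184 CPM in high and 322 CPM in low medial cells, a ratio of -0.81 (-0.92 to -0.70), and at 217 CPM in high and 323 CPM in low lateral cells (-0.57, -0.68 to -0.47). Ndufc1 was at 121 CPM in high and 210 CPM in low medial cells (-0.80) and at 149 CPM in high and 222 CPM in low lateral cells (-0.58). Ndufa4 of complex IV was at 217 CPM in high and 358 CPM in low medial cells (-0.72) and at 258 CPM in high and 400 CPM in low lateral cells (-0.63). In both libraries the intervals of these 3 genes lay well below 0.

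The ratio stayed above 1/1.1 in both libraries for 7 nuclear members, among them Atp5a1, Atp5b, Ndufv1, Sdha, Uqcrc1 and Uqcrfs1. Those named code for the alpha and beta subunits of the ATP synthase head, a core subunit of complex I, the flavoprotein of succinate dehydrogenase, a core protein of complex III and its Rieske iron-sulfur protein. Atp5b was at 441 CPM in high and 439 CPM in low medial cells (0.00, -0.08 to 0.09) and at 437 CPM in high and 415 CPM in low lateral cells (0.07, -0.01 to 0.16). Sdha was at 80.2 CPM in high and 71.3 CPM in low medial cells (0.17, -0.03 to 0.37) and at 83.5 CPM in high and 79.8 CPM in low lateral cells (0.07, -0.12 to 0.26). The transcripts of the 7 genes are between 1363 and 2900 nucleotides long, with a median of 1661. Those of the 60 members that were lower in both libraries are between 371 and 4715 nucleotides long, with a median of 731.5. Of these 60, 43 are under 1000 nucleotides, so the lower set also holds long transcripts.

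Transcript length moved with the ratio over all genes as well. Genes with transcripts under 1000 nucleotides had a median log2 ratio of -0.29 in the medial library (708 genes) and -0.24 in the lateral library (700 genes), and 71.5% of them in medial and 70.1% in lateral cells lay below 1/1.1. Among the members, those under 1000 nucleotides had medians of -0.51 in medial and -0.38 in lateral cells. The longer members had -0.25 in medial and -0.23 in lateral cells, where the longer genes of the whole table had 0.06 in each. The part of length in the result was not tested beyond these values. Members with an NRF1-type match, such as those printed above, had a median of -0.52 in medial and -0.34 in lateral cells, and matched members without one -0.46 in medial and -0.36 in lateral cells.

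Cells with proliferation transcripts, defined by at least 3 UMIs from at least 2 of 20 cycling genes such as Mki67 and Top2a after thinning, made up 12.6% of medial and 14.8% of lateral cells and are called positive cells here. Their nuclear members had a median log2 ratio over the other cells of 0.21 in medial and 0.14 in lateral cells, where all genes had 0.11 in medial and 0.12 in lateral cells. In the medial library 51 of 79 nuclear members had a ratio above 1.1, against 47.2% of all genes, and 4 below 1/1.1, against 25.9%. In the lateral library 43 of 79 were above 1.1, against 48.4% of all genes, and 8 below 1/1.1, against 24.1%. The lateral count above 1.1 is thus close to that of all genes. Cox7a2 was at 415 CPM in positive and 295 CPM in other medial cells (0.49, 0.41 to 0.57) and at 443 CPM in positive and 326 CPM in other lateral cells (0.44, 0.37 to 0.52). Atp5b was at 537 CPM in positive and 423 CPM in other medial cells (0.34) and at 538 CPM in positive and 392 CPM in other lateral cells (0.46).

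Below 1/1.1 in both libraries lay 4 of 79 nuclear members (5.06%), a smaller share than the 14.0% of all genes measured in both. Ndufa6, an accessory subunit of complex I, was at 154 CPM in positive and 218 CPM in other medial cells (-0.50, -0.64 to -0.37) and at 164 CPM in positive and 212 CPM in other lateral cells (-0.38, -0.50 to -0.25). Cox7a2l was at 500 CPM in positive and 623 CPM in other medial cells (-0.32) and at 475 CPM in positive and 616 CPM in other lateral cells (-0.38). Uqcrh was at 424 CPM in positive and 510 CPM in other medial cells (-0.27) and at 411 CPM in positive and 512 CPM in other lateral cells (-0.32). Atp5sl was the other nuclear member below 1/1.1 in both, with intervals that held 0. The mitochondrial members had medians of 0.04 in medial and 0.00 in lateral cells. Positive cells had more UMIs, with medians of 12883 against 10970 in other cells of the medial library and 11787 against 10198.5 in the lateral library, and the part of depth was not tested.

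Cells of high UMI total had nuclear and mitochondrial members moving apart. Between the 25% of cells with the highest and the 25% with the lowest UMI total, all thinned to 1 depth, the nuclear members had a median log2 ratio of 0.22 in medial and 0.10 in lateral cells, and all genes 0.03 in medial and 0.00 in lateral cells. Of 76 nuclear members, 49 were above 1.1 in the medial library, against 38.4% of all genes, and 33 in the lateral library, against 35.6%. All 13 mitochondrial members in the medial library, against 31.4% of all genes, and 11 of 12 in the lateral library, against 35.7%, were below 1/1.1, with medians of -0.33 in medial and -0.41 in lateral cells. mt-Atp6 was at 5525 CPM in deep and 7062 CPM in shallow medial cells (-0.35) and at 6394 CPM in deep and 8544 CPM in shallow lateral cells (-0.42). Ndufa6, Cox7a2l and Uqcrh were the 3 nuclear members below 1/1.1 in both libraries here (3.95% of 76), against 17.9% of all genes measured in both.

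Disease-associated genes, among them Spp1, Gpnmb and Lpl, are raised in microglia near damaged myelin. Between the 25% of cells highest and the 25% lowest in UMIs of 13 such genes, the nuclear members differed little, with median log2 ratios of 0.06 in medial and -0.05 in lateral cells. All genes had medians of -0.12 in medial and -0.18 in lateral cells. In the medial library 19 of 79 nuclear members lay above 1.1, against 20.6% of all genes, and 8 below 1/1.1, against 48.8%. In the lateral library 7 lay above 1.1, against 16.8%, and 23 below 1/1.1, against 55.9%. The mitochondrial members had a median of -0.13 in the medial library, close to that of all genes. There 5 of 13 lay below 1/1.1, against 48.8% of all genes. In the lateral library their median was -0.35, and all 13 lay below 1/1.1, against 55.9% of all genes. The difference between the libraries was not tested.

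Cox6a2, the muscle isoform described above, had the largest ratio in both libraries among nuclear members with at least 300 UMIs in the compared cells. It was at 100 CPM in high and 71.8 CPM in low medial cells, a ratio of 0.48 (0.30 to 0.67), and at 111 CPM in high and 68.6 CPM in low lateral cells (0.70, 0.51 to 0.89). Its counterpart Cox6a1 was at 574 CPM in high and 559 CPM in low medial cells (0.04) and at 608 CPM in high and 636 CPM in low lateral cells (-0.06). Sdhc and Ndufb6 were the other nuclear members above 1.1 in both libraries. Together these were 3 of 79 nuclear members (3.80%), a smaller share than the 9.29% of all genes measured in both. Sdhc had ratios of 0.28 in medial and 0.33 in lateral cells, and Ndufb6, with 45.3% of its 3′ windows shared with another annotated transcript, of 0.22 in medial and 0.27 in lateral cells. High cells were also deeper, with median UMI totals of 11908.5 against 9622 in low medial cells and 11486 against 9110 in low lateral cells. They held fewer cycling transcripts, at 343 CPM against 593 CPM in low medial cells and 337 CPM against 903 CPM in low lateral cells. The part of depth and of cycling in these ratios was not tested.

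**Figure D4:**
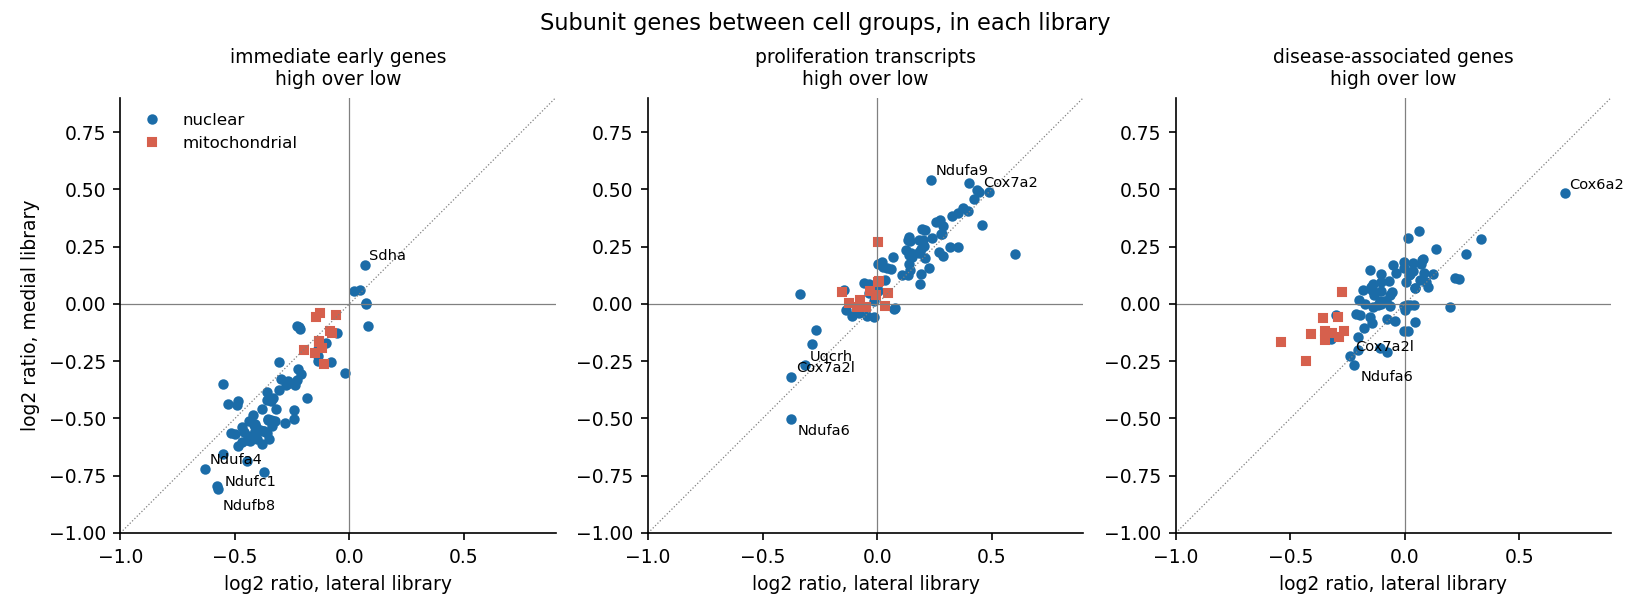
Log2 ratio of high over low cells in the medial library (vertical) against the lateral library (horizontal) for members with at least 300 UMIs in each library, for cells split by immediate early genes (left), proliferation transcripts (middle) and disease-associated genes (right). Nuclear members (circles) lie mostly below 0 in both libraries on the left and mostly above 0 in the middle, and Cox6a2 lies apart on the right.

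Genes that the symbol rule does not take in were followed from lists of their own. The first list holds mainly electron carriers and assembly factors. It also holds Cyc1, Ndufab1 and Usmg5, which are subunits of complexes III, I and V and are not counted in the results of those complexes above. Of 50 electron carrier and assembly genes, 4 had a medial over lateral ratio above 1.1 and 15 below 1/1.1, with a median of -0.08. Both counts are read against the 19.6% of all genes above 1.1 and the 26.3% below 1/1.1, and the count below is near that share. Atpif1, the inhibitor of ATP synthase, was at 360 CPM in medial and 404 CPM in lateral cells (-0.16, -0.21 to -0.12). Coa3, an assembly factor of complex IV, was at 108 CPM in medial and 127 CPM in lateral cells (-0.24), and Cox16, another, at 13.4 CPM in medial and 9.29 CPM in lateral cells (0.52, 0.27 to 0.78). Of 21 regulators of these genes and of mitochondrial transcription, 6 were above 1.1 and 4 below 1/1.1, against the same 19.6% and 26.3%. Esrra, a nuclear receptor of oxidative metabolism, was at 33.6 CPM in medial and 28.0 CPM in lateral cells (0.26, 0.11 to 0.42). Slirp, an RNA-binding protein of mitochondrial transcripts, was at 132 CPM in medial and 130 CPM in lateral cells (0.02). Of 23 genes of the citric acid cycle and pyruvate entry, 0 were above 1.1, against 19.6% of all genes, and 4 below 1/1.1, against 26.3%. Mpc1, a subunit of the mitochondrial pyruvate carrier, was at 479 CPM in medial and 583 CPM in lateral cells (-0.29, -0.32 to -0.25).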

How the data were processed

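The authors deposited raw UMI counts per gene and barcode, with Cell Ranger 2.0.1, STAR and mm10 named in the submitters' processing notes. The deposited counts cover 737280 barcodes per library and were used with no other per-sample column. UMIs were summed over the cells of each library, divided by the UMI total of those cells and given as CPM with exact Poisson 95% intervals. Ratios have exact conditional binomial 95% intervals. Each region has 1 library, so regions were compared without a test and cells were not used as replicates.

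The members and lists were chosen with earlier results of these data known. Named genes were all mitochondrial members, the nuclear members of each complex with most UMIs, those whose interval bound nearest a ratio of 1 lay farthest from 1 in each direction, isoform groups, and from each other list the gene with most UMIs and those chosen by the same interval bound. Genes named in the comparisons of cells were chosen after their values were seen.

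For cell groups, cells were scored after thinning to 3869 UMIs, and UMIs of the unthinned cells were summed, except for UMI total, where thinned UMIs were summed. No doublets were removed. Scrublet in scanpy 1.11.5 marked 6 medial and 3 lateral cells. Free RNA was taken from barcodes with 1 to 100 UMIs. Shared windows of 57 bases, the read length, were counted over the last 500 bases of transcripts of the GENCODE annotation. The intervals and thinning were tested on simulated data. Python 3.11.15, numpy 2.4.6, scipy 1.17.1 and pandas 2.3.3 were used, with R 4.3.3, edgeR 4.0.16 and DESeq2 1.42.0 for alternative scalings only.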

Additional observations from a re-analysis of the deposited data

Results flagged for a closer look

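Several members had ratios of opposite sign in the 2 libraries in the same comparison of cells, each past 1.1 in its direction. None of these differences between libraries was tested. Between cells high and low in disease-associated genes, Ndufs6, a zinc-binding subunit of complex I, had a log2 ratio of 0.15 (0.01 to 0.29) in medial and -0.15 (-0.29 to -0.01) in lateral cells, the only such gene whose intervals both leave 0. In that comparison Cox7a1 had 1.02 in medial and -0.68 in lateral cells, and Cox6b2 had 0.31 in medial and -0.48 in lateral cells. Between cells with proliferation transcripts and the others, Cox7a1 had 0.44 in medial and -0.92 in lateral cells. Between cells high and low in immediate early genes, Atp5s had 0.44 in medial and -0.59 in lateral cells. Between cells of high and low UMI total, Ndufs4 had 0.41 in medial and -0.15 in lateral cells, and Ndufs1 had -0.24 in medial and 0.21 in lateral cells. Cox7a1, Cox6b2 and Atp5s are scarce, with 160, 130 and 264 UMIs over both libraries.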

How the results depend on the processing

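Across 15 processing alternatives, 1302 of 1374 medial over lateral member ratios stayed within their counting interval and 71 moved outside it. The 1 other value was that of Cox7a1, which changed sign (0.16, and -0.19 with each cell counted alike). Changes of sign were counted only for members past 1.1 in either direction. Smaller ratios that crossed 0 were not counted as changes. Alternatives that changed only the minimum of UMIs per gene left every ratio as it was, and their values are among the 1302. The count of members below 1/1.1 was 16, became 7 with ratios centred on the median gene, with TMM or with DESeq2 size factors, against 20.02%, 19.8% and 20.02% of all genes under these scalings, and became 25 with each cell counted alike, against 28.7% of all genes. With a fold of 1.2 in place of 1.1 it was 1, with 4 above, against 10.1% and 10.6% of all genes. The median of the mitochondrial members, -0.05, became -0.020 when centred, -0.018 with TMM, -0.020 with DESeq2 size factors and -0.083 in thinned cells. The complex II median became -0.036 in thinned cells. With the 10% of cells highest and lowest in immediate early genes, the nuclear medians were -0.61 in medial and -0.53 in lateral cells and the mitochondrial medians -0.21 and -0.27. With the same 10% by disease-associated genes the mitochondrial medians were -0.21 in medial and -0.47 in lateral cells. Some alternatives were added after the data were seen. Centred on the median gene, the mitochondrial median was -0.20 in the medial library for immediate early genes, and -0.071 in medial and -0.12 in lateral cells for proliferation, where the lateral nuclear median became 0.021. For disease-associated genes the centred nuclear medians were 0.18 in medial and 0.13 in lateral cells and the mitochondrial medians -0.0020 and -0.17. The nuclear median of medial over lateral was -0.16 in the second lowest of 4 ranges of cells by UMI total and -0.15 in the lowest range by disease-associated genes. The causes were not tested. No paired analysis was possible because there is 1 library per region, and for the same reason no library could be left out. Genes such as Cox7a1 and Cox6b2 are limited by their few UMIs.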

Other observations

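The lists that set the groups of cells also differed between the regions. The 16 immediate early genes had a median medial over lateral log2 ratio of 0.42, the 20 cycling genes -0.26 and the 13 disease-associated genes -0.14. Junb, a transcription factor subunit, was at 1776 CPM in medial and 1688 CPM in lateral cells, and Egr1, a zinc finger factor, at 175 CPM in medial and 108 CPM in lateral cells. Klf2, an exception among the immediate early genes, was at 114 CPM in medial and 143 CPM in lateral cells. Of the cycling genes, Birc5 was at 60.3 CPM in medial and 77.9 CPM in lateral cells, and Cenpf at 18.6 CPM in medial and 25.5 CPM in lateral cells. Spp1, which codes for osteopontin, was at 4548 CPM in medial and 5396 CPM in lateral cells, and Igf1 at 435 CPM in medial and 536 CPM in lateral cells. Itgax, an integrin subunit of the disease-associated list, was at 35.1 CPM in medial and 21.2 CPM in lateral cells. Within 4 ranges of cells with common limits of immediate early UMIs, the nuclear respiratory chain members had medial over lateral medians of -0.04, -0.03, -0.03 and -0.09 from the lowest to the highest range, against -0.04, -0.01, -0.02 and -0.06 for all genes.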
